A study of Mus musculus with 23 samples.

Results

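The 10 macrophage genes *Csf1r*, *Cd68*, *Lyz2*, *C1qa*, *C1qb*, *C1qc*, *Cd163*, *Mrc1*, *Gpnmb* and *Trem2* were followed in the mouse ileum. They were chosen by name, and all array probes carrying these names were taken, 16 on the array and 14 in the table of log2 signals deposited by the authors. That table held 37161 probes, 30613 of them assigned to 17605 genes. The probes left out of it were a second probe of *C1qc*, well above background on 0 of 23 arrays, and a second probe of *Cd163*, well above background on 4 arrays. Each gene is given by its brightest probe, which was well above background on all 23 arrays for all 10 genes.

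The arrays came from 4 groups of male C57BL/6J mice, 1 array per mouse, and compared pregnenolone 16α-carbonitrile (PCN), a steroid ligand of the rodent pregnane X receptor (PXR), with its solvent in mice with and without that receptor. Wild-type control mice (WT CONT, n = 6) and mice without the receptor (*Pxr*-/- CONT, n = 6) received corn oil, and WT PCN (n = 5) and *Pxr*-/- PCN (n = 6) received 100 mg/kg PCN in corn oil, injected into the abdomen once daily on 4 days, so that every mouse carried the injections and the oil. All were killed at zeitgeber time 6, when 6 h had passed since the last injection. The sample labels call this the fed state, whereas the paper on the liver of these mice describes them as semi-fasted at that time. WT mice were purchased at 6 weeks of age and kept for 2 weeks before allocation, whereas *Pxr*-/- mice, backcrossed to C57BL/6J, came from a colony bred in house for 10 years. Genotype and breeding origin cannot be told apart, and the age of the *Pxr*-/- mice is not given in the sources used here. The *Nr1i2* probe, which reads the gene of the receptor, was at 12.14 ± 0.16 (log2 signal, mean ± SD) in WT CONT, 12.17 ± 0.30 in WT PCN, 11.73 ± 0.36 in *Pxr*-/- CONT and 11.71 ± 0.18 in *Pxr*-/- PCN, and since its place relative to the deleted part is not given, it checks no label. The arrays had been washed in 2 batches that each held all 4 groups, the median spot signal lay between 74 and 106.5, and the share of probes well above background ran from 60.9% to 67.3%. All 7 markers of ileal epithelium read here, *Fabp6* and *Slc10a2* of ileal bile acid uptake among them, were well above background on 23 of 23 arrays.

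Macrophages are tissue phagocytes. In the gut wall most are replenished from blood monocytes and clear dying epithelial cells and bacteria without starting inflammation. The receptor CSF1R carries the survival signal of the lineage, CD68 sits in the lysosomal membrane, and LYZ2 is the lysozyme of myeloid cells. C1QA, C1QB and C1QC are the chains of C1q, the first component of the classical complement pathway, which tissue macrophages secrete. CD163 takes up haemoglobin-haptoglobin complexes and MRC1 is the mannose receptor. These genes mark resident macrophages. GPNMB is a lysosomal and surface glycoprotein, and TREM2 is a lipid-sensing surface receptor. Both are known from lipid-associated macrophages, which take up lipid and cell debris in fat, atherosclerotic vessels and injured tissue.

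The probes decide what each value reads, so the first 30 bases of the 60-base probes are printed below, 5′ to 3′ as the scanner files give them, with positions on build mm9. They are shown for *Trem2*, which was called in both genotypes, for the 3 chains of C1q, and for lysozyme, where the probes disagreed. No base is set in capitals here. The exon that each probe covers was not analysed here.
Trem2, chr17:48491537-48491596, strand +: acagctggatggttgtctgtcaacttctgc
C1qa, chr4:136452409-136452468, strand -: ccggccagctttctcagccattcggcagaa
C1qb, chr4:136436578-136436637, strand -: attctggggactacggggctacacagaaag
C1qc, chr4:136445766-136445825, strand -: tctgggaaccacctaatggtattattcctg
Lyz2, brighter probe, chr10:116714450-116714509, strand -: cttaagttccttcattcacactaactctga
Lyz2, dimmer probe, chr10:116719175-116719234, strand -: aacgttgtgagtttgccagaactctgaaaa
Lyz1, chr10:116724862-116724921, strand -: ccaataaccacaggagcaaatctaatctca

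To set lipid-associated and resident genes side by side, promoters of both kinds are also shown, as the 250 bases before the start of *Trem2*, *Gpnmb*, *C1qb* and *C1qc*. They are RefSeq sequences on build GRCm38.p6. Capitals mark 2 motifs read on either strand, the core of the site of PU.1, the transcription factor that defines the myeloid lineage (GAGGAA, or TTCCTC on the opposite strand), and the M-box of the MITF and TFE factors of lysosomal genes (CATGTG, or CACATG).
Trem2, chr17:48346151-48346400, strand +: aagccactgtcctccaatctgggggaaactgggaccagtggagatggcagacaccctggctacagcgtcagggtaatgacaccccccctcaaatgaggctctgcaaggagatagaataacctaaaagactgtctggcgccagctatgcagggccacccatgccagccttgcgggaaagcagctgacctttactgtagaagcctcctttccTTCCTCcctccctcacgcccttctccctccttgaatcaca
Gpnmb, chr6:49036268-49036517, strand +: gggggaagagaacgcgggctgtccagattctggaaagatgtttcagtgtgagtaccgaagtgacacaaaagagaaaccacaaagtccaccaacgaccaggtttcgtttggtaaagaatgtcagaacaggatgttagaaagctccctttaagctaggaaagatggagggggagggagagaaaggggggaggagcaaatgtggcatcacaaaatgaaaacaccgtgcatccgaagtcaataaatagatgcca
C1qb, chr4:136886201-136886450, strand -: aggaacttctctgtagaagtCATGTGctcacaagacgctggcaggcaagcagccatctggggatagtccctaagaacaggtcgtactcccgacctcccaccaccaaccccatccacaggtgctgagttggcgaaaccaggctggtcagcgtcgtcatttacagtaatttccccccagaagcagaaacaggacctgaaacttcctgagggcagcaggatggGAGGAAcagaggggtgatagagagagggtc
C1qc, chr4:136892915-136893164, strand -: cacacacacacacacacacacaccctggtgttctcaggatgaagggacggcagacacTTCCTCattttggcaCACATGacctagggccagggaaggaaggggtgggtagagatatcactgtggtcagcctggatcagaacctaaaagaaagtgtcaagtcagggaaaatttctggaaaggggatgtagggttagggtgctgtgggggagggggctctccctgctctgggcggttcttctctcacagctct
The PU.1 core was present in 5 of the 8 macrophage genes whose promoter was read (*Cd68*, *C1qb*, *C1qc*, *Mrc1* and *Trem2*), against 23.3% of the 32851 promoter windows in the table. The M-box was present in 3 (*C1qb*, *C1qc* and *Mrc1*), against 12.3% of all windows, and its relative CACGTG, the E-box, in 0, against 6.02%. *Trem2* held a PU.1 core starting at position -40, and the *Gpnmb* window held none of the 3 motifs. Matches of different motifs shared bases in 0 of the 8 promoters. A match describes letters and is not a measured site.

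PCN was compared with oil within each genotype to ask how the macrophage genes moved, and whether this needed the receptor. *Trem2* rose in both genotypes, 2.32-fold in WT and 3.21-fold in *Pxr*-/- mice. *Gpnmb* was 1.68-fold higher in each genotype, but this did not pass the test in either genotype and did so only in the average of both. Among the pan-macrophage genes *Cd68* rose in *Pxr*-/- mice. Of the 5 resident genes 0 were called in either genotype. A gene was called when its adjusted p was at most 0.05 and its fold change exceeded 1.5. P-values came from limma, fitted to all 37161 probes with wash batch as a term and adjusted by the Benjamini-Hochberg procedure. For PCN in WT mice 1 of the 10 genes was called (*Trem2*), where 1.05% of all 17605 genes were called. In *Pxr*-/- mice 2 of the 10 were called (*Cd68* and *Trem2*), where 1.48% of all genes were. Where the adjusted p alone was required, 1 of the 10 genes passed in WT (*Trem2*, beside 1.88% of all genes) and 4 in *Pxr*-/- mice (*Csf1r*, *Cd68*, *C1qc* and *Trem2*, beside 5.16%). In bulk tissue, a change in the number of macrophages and a change in the RNA of each macrophage cannot be told apart.

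**Figure D1:**
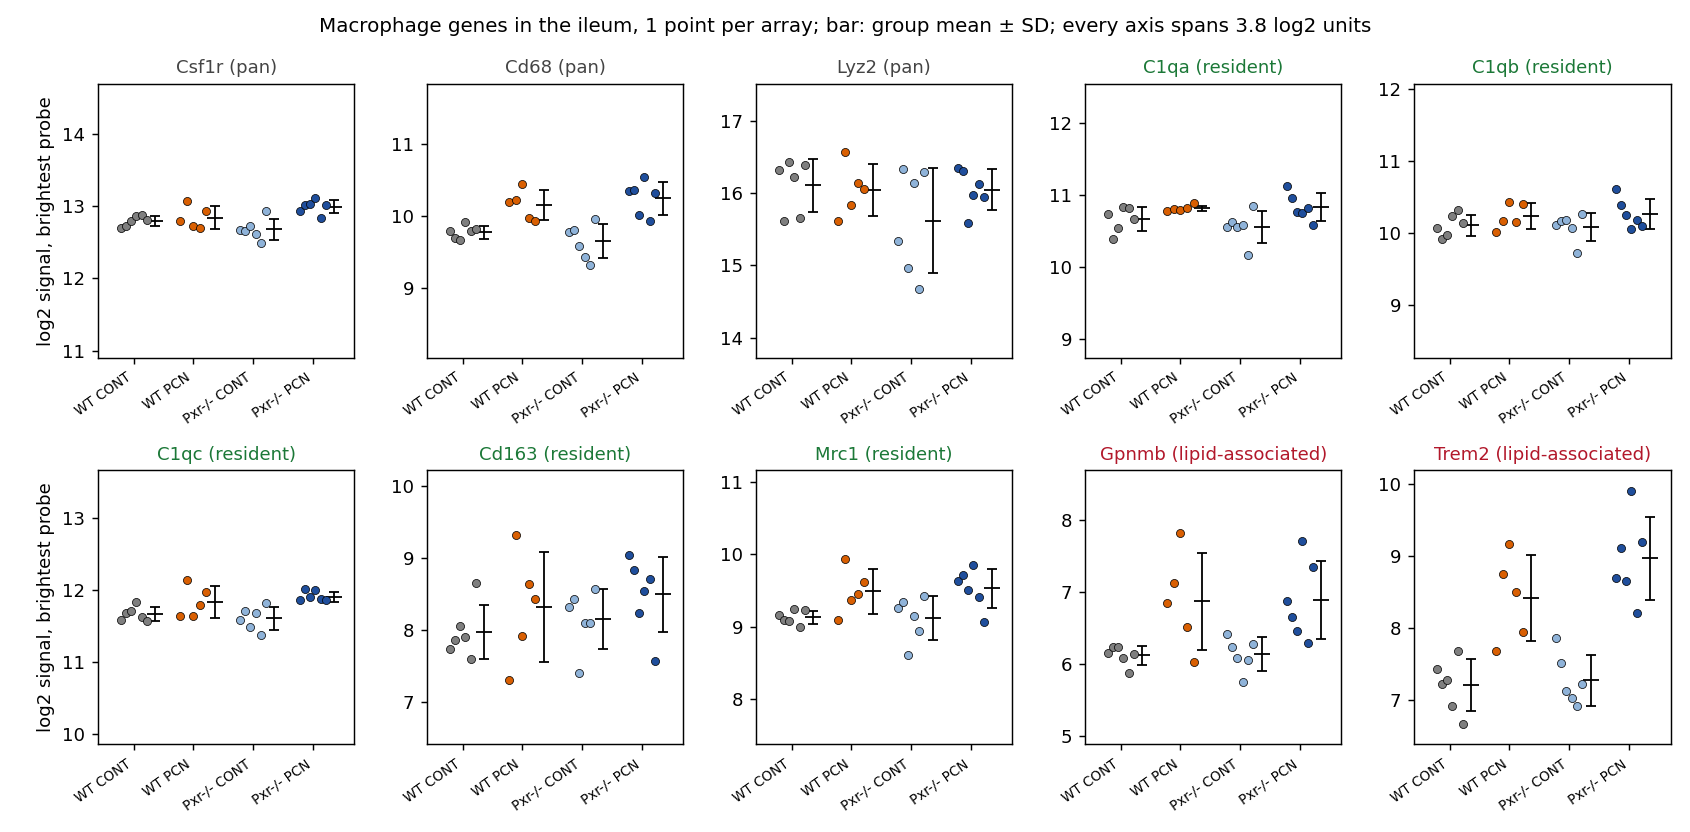
Log2 signal of the brightest probe of each macrophage gene on every array (points), with the mean ± SD of each group (bars). The groups hold 6, 5, 6 and 6 arrays from left to right, and every panel spans the same number of log2 units. All PCN arrays lie above all oil arrays of the same genotype for *Trem2*, whereas *Cd163* and *C1qb* overlap between all groups.

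*Trem2* had log2 signals of 7.69, 7.95, 8.51, 8.76 and 9.17 in the 5 WT PCN mice, and from 6.68 (lowest) over 7.26 (median) to 7.68 (highest) in the 6 WT CONT mice. The lowest treated mouse lay just above the highest control, so the groups did not overlap. The change was 1.21 on the log2 scale (SE 0.273, 95% interval 0.64 to 1.78, adjusted p = 0.0243 by limma). The *Pxr*-/- oil group ranged from 6.93 over 7.18 to 7.86, and the PCN group from 8.21 over 8.91 to 9.90. Here too all 6 treated mice were above all 6 controls, with a change of 1.68 (SE 0.26, interval 1.14 to 2.22, adjusted p = 0.0013 by limma). All PCN arrays lay above all oil arrays for 2 of the 10 genes in WT (*Trem2* and *Cd68*) and 2 in *Pxr*-/- mice (*Trem2* and *C1qc*), beside 1.94% and 2.25% of all genes. *Trem2* rose by 0.91 in WT and 1.32 in *Pxr*-/- mice within wash batch 1, and by 1.45 and 2.04 within wash batch 2, and of these 4 changes only the last passed the test with so few arrays (adjusted p = 0.0497 by limma). The WT call rested on few mice. With slide as a block the WT change was 1.29 (adjusted p = 0.0652 by limma), and the WT call was lost on leaving out WT PCN replicate 1, 2 or 4 or WT CONT replicate 2 or 4, with adjusted p-values up to 0.0955, whereas the call in *Pxr*-/- mice held without any 1 of the 23 arrays.

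*Gpnmb* was measured at 6.03, 6.51, 6.85, 7.13 and 7.82 in WT PCN and from 5.87 over 6.15 to 6.23 in WT CONT. Of the treated mice 4 of 5 lay above all controls, and the lowest lay among them. The spread was wider under PCN (SD 0.67) than under oil (SD 0.13). *Gpnmb* in *Pxr*-/- mice ranged from 5.75 over 6.16 to 6.42 with oil and from 6.29 over 6.76 to 7.70 with PCN, and these ranges overlapped. The change was 0.75 in both genotypes, with SE 0.249 in WT (adjusted p = 0.174 by limma) and 0.237 in *Pxr*-/- mice (adjusted p = 0.0758). Averaged over genotypes it was 0.75 (SE 0.172, interval 0.39 to 1.11, adjusted p = 0.00853), and this was a call. The average called 2 of the 10 macrophage genes, *Gpnmb* and *Trem2*, where 1.5% of all genes were called, and by adjusted p alone 6 passed (*Csf1r*, *Cd68*, *C1qc*, *Mrc1*, *Gpnmb* and *Trem2*), where 12.2% of all genes did. With a background correction by normexp the averaged change of *Gpnmb* was 0.56, below the fold required, and it was 0.60 within wash batch 1 and 0.92 within wash batch 2 (adjusted p = 0.0418 and 0.117).

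Of the 3 pan-macrophage genes *Cd68* had a call, on 1 of its 3 probes, and no test of a difference between the genes was made. *Cd68* signals were 9.93, 9.98, 10.20, 10.22 and 10.45 in WT PCN and 9.67 over 9.79 to 9.92 in WT CONT, so the lowest treated mouse lay just above the highest control. The WT change was 0.38 (SE 0.122, adjusted p = 0.16 by limma). Without the receptor *Cd68* went from 9.33 over 9.68 to 9.97 with oil and from 9.93 over 10.34 to 10.55 with PCN, with 5 of 6 treated mice above all controls. The change was 0.60 there (SE 0.116, adjusted p = 0.00695 by limma), a fold of 1.51 that lay at the edge of the required 1.5. Other background correction, scaling or weighting and the mean of all probes took it under that fold, as did leaving out *Pxr*-/- PCN replicate 1, 4, 5 or 6 or *Pxr*-/- CONT replicate 1, 3 or 4 (changes down to 0.53, adjusted p up to 0.0227). Within wash batches 1 and 2 the change was 0.51 and 0.68 (adjusted p = 0.292 and 0.115). The second *Cd68* probe, with means of 7.81 in WT CONT, 8.06 in WT PCN, 7.73 in *Pxr*-/- CONT and 8.28 in *Pxr*-/- PCN, differed by 0.25 in WT (adjusted p = 0.395 by limma) and by 0.54 in *Pxr*-/- mice (adjusted p = 0.00952, a fold of 1.46 and no call). The third *Cd68* probe, well above background on 19 of 23 arrays, differed by 0.13 and 0.28 (adjusted p = 0.695 and 0.114).

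*Csf1r* in WT CONT ranged from 12.70 over 12.80 to 12.88, and the WT PCN values were 12.70, 12.72, 12.79, 12.94 and 13.07. The WT change was 0.05 (interval -0.12 to 0.22), and its direction turned when arrays were centred on their median or when all probes were averaged. *Csf1r* in *Pxr*-/- mice was at 12.49 over 12.66 to 12.94 with oil and at 12.84 over 13.02 to 13.11 with PCN. The change of 0.31 (SE 0.0763, adjusted p = 0.0269 by limma) was a fold of 1.24, too small for a call. The dimmer *Csf1r* probe did not show this difference, with group means between 9.02 and 9.09 and a change of -0.08 in WT and -0.01 in *Pxr*-/- mice (adjusted p = 0.795 and 0.974 by limma).

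*Lyz2* could not be read in the same way from its 2 probes. The brighter one ranged over 15.62 to 16.44 in WT CONT, 15.62 to 16.57 in WT PCN, 14.67 to 16.33 in *Pxr*-/- CONT and 15.59 to 16.35 in *Pxr*-/- PCN. Its change with PCN was -0.06 in WT (interval -0.62 to 0.50) and 0.43 in *Pxr*-/- mice (interval -0.10 to 0.96). The WT change turned positive with slide or replicate number as a block and in the mean of both probes. The dimmer probe was higher with PCN by 0.47 in WT and 0.48 in *Pxr*-/- mice, and by 0.47 on average (SE 0.148, adjusted p = 0.0471 by limma, under the fold required). Across the 23 arrays, with the mean of each wash batch removed, the brighter *Lyz2* probe correlated with the probe of *Lyz1*, the lysozyme of Paneth cells, at r = 0.86, and with the dimmer *Lyz2* probe at r = 0.65. *Lyz2* and *Lyz1* are near-identical neighbouring genes, and signal from one on the probe of the other was not separated. The lowest brighter-probe values, 14.67 and 14.96 in *Pxr*-/- CONT, came from the mice with the lowest *Lyz1* values, 15.98 and 16.07.

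**Figure D2:**
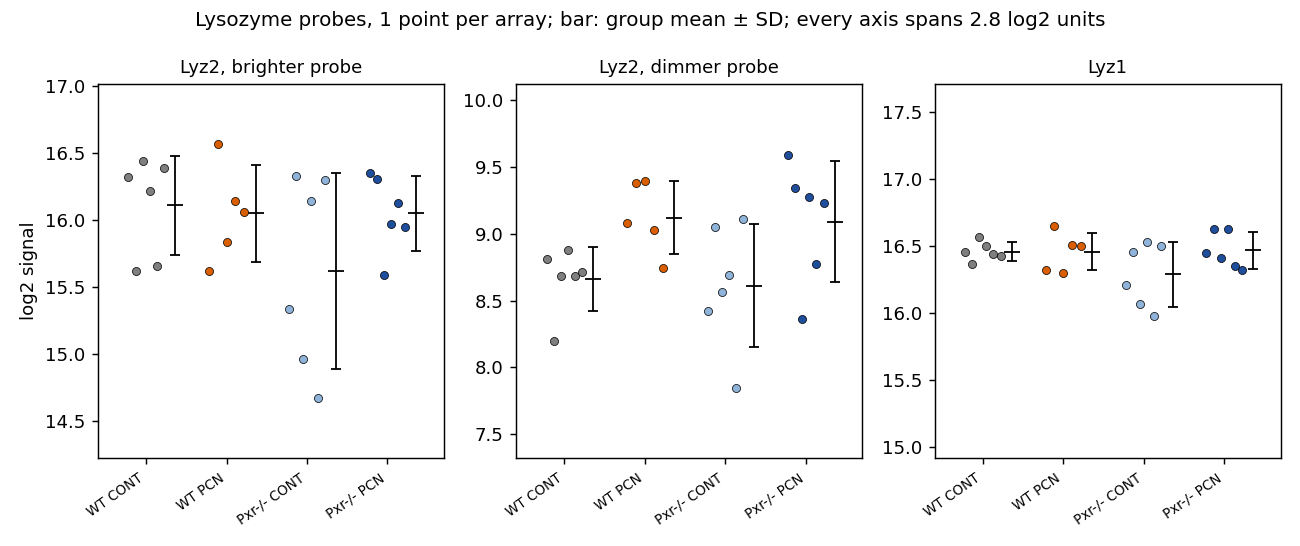
Log2 signal of both *Lyz2* probes and of the *Lyz1* probe on every array (points), with the mean ± SD of each group (bars) and the same span on every axis. The brighter *Lyz2* probe shares its 2 lowest *Pxr*-/- CONT arrays with *Lyz1*, and the dimmer probe has higher means in both PCN groups (9.12 and 9.09) than in the oil groups (8.66 and 8.61).

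The resident genes were all higher with PCN in both genotypes under every scaling tried, by small amounts. Their median change was 0.17 in WT and 0.30 in *Pxr*-/- mice, beside a median over all genes of -0.02 and 0.00. *C1qc* was at 11.64, 11.64, 11.80, 11.98 and 12.14 in WT PCN and from 11.57 over 11.66 to 11.83 in WT CONT. The *Pxr*-/- mice ranged from 11.38 over 11.63 to 11.82 with oil and from 11.86 over 11.88 to 12.01 with PCN, without overlap. The *Pxr*-/- change of *C1qc* was 0.30 (SE 0.0859, adjusted p = 0.0499 by limma), a fold of 1.23 and no call. *C1qa* was tight in WT PCN, between 10.78 and 10.89, and lay between 10.39 and 10.83 in WT CONT, between 10.16 and 10.84 in *Pxr*-/- CONT and between 10.58 and 11.12 in *Pxr*-/- PCN. Its change was 0.15 in WT and 0.28 in *Pxr*-/- mice (adjusted p = 0.632 and 0.125). *C1qb* differed by 0.13 and 0.18 (adjusted p = 0.722 and 0.372), with all groups overlapping between 9.73 and 10.62. All 3 chains thus differed from their controls by at most 0.30.

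*Mrc1* was 9.09, 9.37, 9.45, 9.62 and 9.93 in WT PCN against 9.0 over 9.13 to 9.24 in WT CONT. It ranged from 8.60 over 9.20 to 9.42 in *Pxr*-/- CONT and from 9.06 over 9.57 to 9.85 in *Pxr*-/- PCN. The changes were 0.36 and 0.41 (adjusted p = 0.325 and 0.111), and 0.38 on average (SE 0.104, adjusted p = 0.0236 by limma, a fold of 1.31). *Cd163* was the most scattered resident gene. Its WT PCN values were 7.31, 7.91, 8.42, 8.64 and 9.31, a range that enclosed all 6 WT CONT mice (7.59 over 7.88 to 8.65). *Cd163* differed by 0.35 in WT (interval -0.26 to 0.97) and 0.33 in *Pxr*-/- mice (interval -0.25 to 0.92), so neither no change nor a fold above 1.5 could be set aside at this number of arrays.

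**Figure D3:**
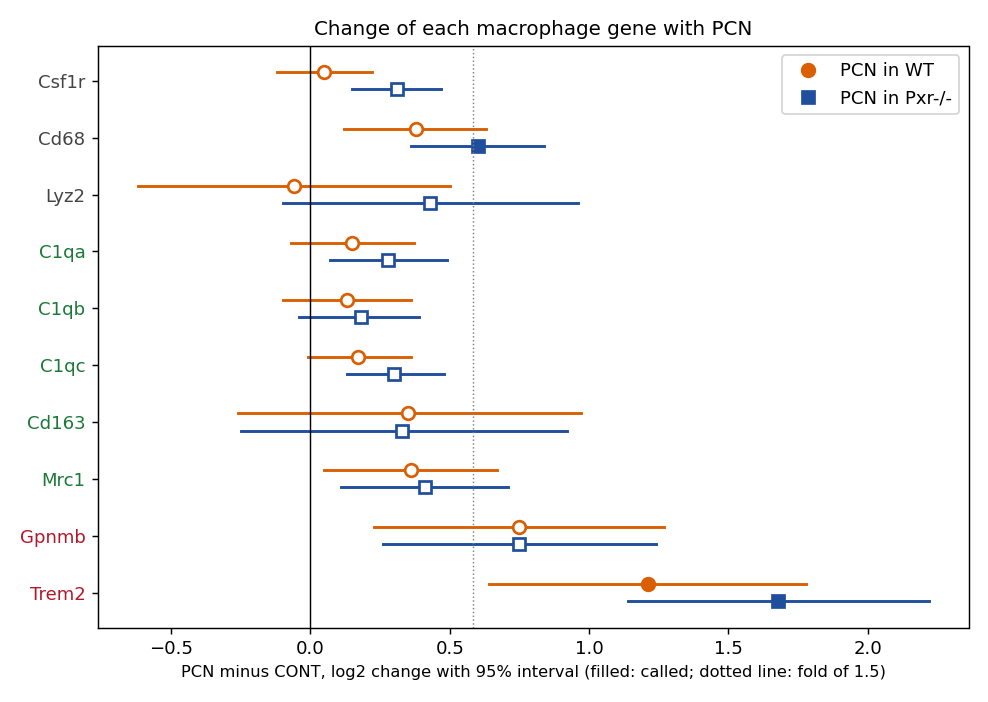
Change with PCN on the log2 scale for each macrophage gene in WT (circles) and *Pxr*-/- mice (squares), with 95% intervals. Filled symbols are called, and the dotted line marks the 1.5-fold requirement. *Trem2* is filled in both genotypes and *Cd68* in *Pxr*-/- mice, and the intervals of *Gpnmb* reach from 0.23 to 1.27 in WT and from 0.26 to 1.24 in *Pxr*-/- mice.

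The lipid-associated and the resident genes were set against each other array by array. On each array the 2 lipid-associated and the 5 resident genes were averaged on the log2 scale, and both means were expressed relative to WT CONT. The difference between them was 0.00 ± 0.26 (SD) for the WT CONT arrays, and PCN brought it to 0.75 ± 0.62 in WT mice. It was 0.05 ± 0.25 for *Pxr*-/- CONT arrays and 0.97 ± 0.62 after PCN in the same genotype. It is given without a test, because the genes had been chosen with earlier results known. In WT PCN 4 of 5 arrays lay above the highest WT CONT array, in *Pxr*-/- PCN 6 of 6 did, and in *Pxr*-/- CONT 2 of 6 did. The WT PCN differences were -0.03, 0.58, 0.72, 0.74 and 1.71. Those of *Pxr*-/- PCN were 0.30, 0.58, 0.68, 0.75, 1.68 and 1.81. The arrays at 1.71, 1.68 and 1.81 all belonged to wash batch 2, and the difference between PCN and oil was 0.57 in WT and 0.44 in *Pxr*-/- mice within wash batch 1 and 0.92 and 1.39 within wash batch 2. These 3 arrays were high in the lipid-associated mean (1.61 to 2.14) and at -0.07 to 0.33 in the resident mean. Without any 1 array the difference between PCN and oil stayed between 0.50 and 0.94 in WT and between 0.75 and 1.05 in *Pxr*-/- mice.

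**Figure D4:**
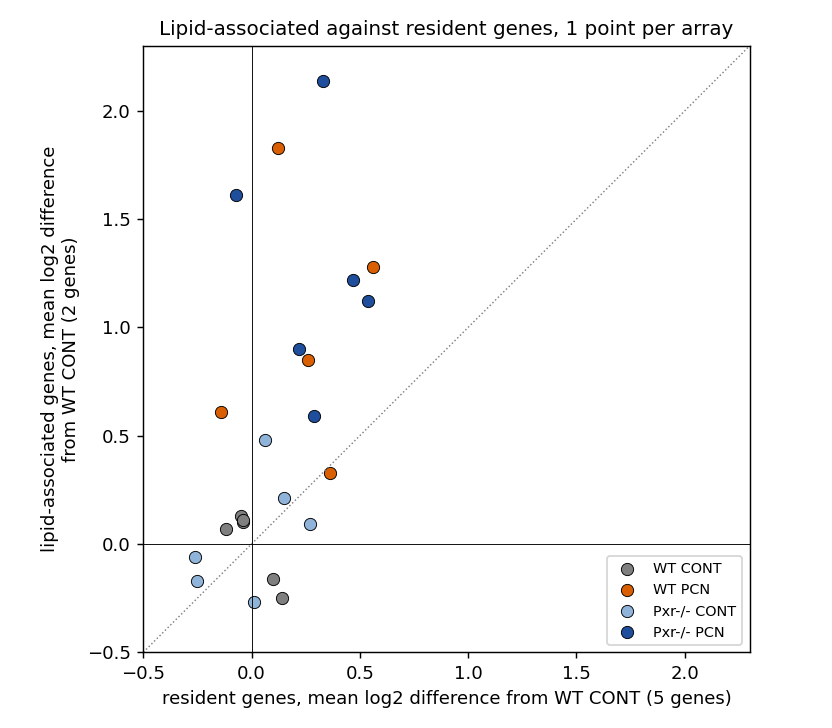
Mean of the lipid-associated genes (vertical axis) against the mean of the resident genes (horizontal axis) on each of the 23 arrays, both as log2 differences from the WT CONT mean. The dotted line marks equal change. The PCN arrays spread upwards, to 2.14, and to the right by at most 0.56, and 10 of the 11 lie above the line.

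The receptor question was addressed by the difference between the PCN effects of the genotypes. Of the 10 genes 0 were called by limma (0.119% of all genes were), and *Csf1r* alone passed 0.05 before adjustment, with all adjusted p-values at 1. By the brightest probes the difference, WT minus *Pxr*-/-, was largest in size for *Lyz2* (-0.48, interval -1.25 to 0.28) and *Trem2* (-0.47, interval -1.25 to 0.31). *Gpnmb* was at 0.00 (interval -0.71 to 0.71). The dimmer *Lyz2* probe was at -0.01 (interval -0.63 to 0.60), and the dimmer *Csf1r* probe at -0.07 (unadjusted p = 0.555 by limma). With intervals this wide, effects of unequal size in the genotypes could have gone unseen. Between the oil groups of the genotypes 0 of the 10 genes were called, with 0.227% of all genes called and 0 of the 10 at an unadjusted p under 0.05. The changes ran from -0.48 (*Lyz2*, brighter probe) to 0.19 (*Cd163*), and the dimmer *Lyz2* probe was at -0.05. Between the PCN groups 0 of the 10 were called, with 0.54% of all genes called and again 0 at an unadjusted p under 0.05. *Trem2* had the largest difference there, 0.55 higher in *Pxr*-/- mice (interval -0.02 to 1.11, adjusted p = 0.74 by limma).

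Across the 23 arrays, after the mean of each wash batch was removed, the 10 genes formed looser and tighter pairs. *Trem2* correlated with *Gpnmb* at r = 0.84 and with *Cd68* at 0.85, and *Cd68* with *Gpnmb* at 0.86. *C1qa* followed *C1qb* (r = 0.86), *C1qc* followed *Mrc1* (0.84) and *Csf1r* (0.83), and *Mrc1* followed *Cd163* (0.81). *Gpnmb* had its lowest values with *Lyz2* (0.13) and *Cd163* (0.16). These coefficients describe arrays that share the treatment, and no test was made.

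The genes most like *Gpnmb* among 15875 compared were *Hmox1* (r = 0.93), which breaks down haem, *Adam8* (0.91), a protease of myeloid cells, *Dpep2* (0.89), *B430306N03Rik* (0.88) and *Gpr137b-ps* (0.88). Those most like *Trem2*, a list added after the values were seen, were *Emilin2* (0.98), *Hmox1* (0.95), *S100a9* (0.94), a calcium-binding protein of neutrophils and monocytes, *Vim* (0.94), the intermediate filament of mesenchymal and myeloid cells, and *Emp3* (0.92). The mean of the resident genes was most like *Svep1* (0.91), an extracellular matrix protein, *Scara3* (0.89), *Matn2* (0.88), *Clec4a3* (0.87) and *Nxpe5* (0.87). *Hmox1* was higher with PCN by 1.14 in WT (adjusted p = 0.0565 by limma) and rose by 1.27 in *Pxr*-/- mice (adjusted p = 0.0154). *Emilin2* rose by 0.78 and 1.11, and *Vim* by 0.69 and 0.91, in WT and *Pxr*-/- mice (adjusted p at most 0.0211 by limma). *Hmox1*, *Emilin2* and *Vim* were picked for following *Gpnmb* or *Trem2* over these same arrays, with the treatment left in. Their p-values therefore add no separate support. *Svep1* differed by 0.34 and 0.42 and passed in neither genotype.

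Other genes of each macrophage class were read from wider lists, whose counts of called genes stand beside 1.05% of all genes called in WT and 1.48% in *Pxr*-/- mice. Of 20 other pan-macrophage genes 0 were called in WT and 1 in *Pxr*-/- mice, with a median change of 0.18 and 0.27. By adjusted p alone 1 of the 20 passed in WT and 7 in *Pxr*-/- mice, beside 1.88% and 5.16% of all genes. Averaged over genotypes 0 were called and 8 passed by adjusted p alone, beside 1.5% and 12.2% of all genes. The called gene was *Fcgr3*, an IgG receptor, which rose by 0.60 in *Pxr*-/- mice (SE 0.11, adjusted p = 0.00491 by limma), and was at 0.50 in WT (adjusted p = 0.0283, under the fold required). *Tyrobp*, the signalling adaptor of TREM2, differed by 0.28 in WT (adjusted p = 0.199) and 0.49 in *Pxr*-/- mice (adjusted p = 0.00622), under the fold required, and *Adgre1*, the classical surface marker of mouse macrophages, by 0.16 and 0.38 (adjusted p = 0.758 and 0.16).

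The table held 19 other resident genes, of which 1 was called in WT and 3 in *Pxr*-/- mice, beside 1.05% and 1.48% of all genes. Averaged over genotypes 5 of the 19 were called, beside 1.5% of all genes. By adjusted p alone 9 passed in that average, beside 12.2% of all genes. *Clec10a*, a lectin of tissue macrophages and dendritic cells, rose by 0.81 in WT (SE 0.182, adjusted p = 0.0243 by limma) and by 0.94 in *Pxr*-/- mice (SE 0.173, adjusted p = 0.00517), and all treated mice lay above all controls. *Igf1*, a growth factor, and *Pf4*, a chemokine of platelets and macrophages, rose by 0.91 and 0.73 in *Pxr*-/- mice. *Cx3cr1*, the fractalkine receptor of gut macrophages, was at -0.17 in WT and 0.13 in *Pxr*-/- mice, and *Timd4*, of long-lived macrophages, at 0.10 and 0.21, and none of these passed the test. The median change of the 19 was 0.27 and 0.36.

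The table held 22 other lipid-associated genes, of which 0 were called in WT and 3 in *Pxr*-/- mice, and their median change, 0.15 and 0.28, was below that of the other resident genes. Averaged over genotypes 2 of the 22 were called (*Spp1* and *Ctsk*), beside 1.5% of all genes. By adjusted p alone 6 passed in that average, beside 12.2% of all genes. *Spp1*, which encodes osteopontin, had by far the largest change. It was at 7.05, 8.06, 8.19, 8.97 and 11.14 in WT PCN, and from 4.81 over 6.27 to 7.38 in WT CONT, so that the lowest treated mouse lay below the highest control. The *Pxr*-/- values ran from 4.71 over 5.78 to 6.70 with oil and from 6.99 over 8.76 to 11.62 with PCN, with no overlap. The change of 3.39 (SE 0.692, adjusted p = 0.00964 by limma) was called in *Pxr*-/- mice, and the WT change of 2.64 missed the threshold (adjusted p = 0.0833). The *Spp1* probe was well above background on 20 of 23 arrays, with 5 of 6 in WT CONT, 4 of 6 in *Pxr*-/- CONT and all PCN arrays. Oil values near background leave the size of the *Spp1* change uncertain. The spread of *Spp1* differed by wash batch. In wash batch 1 the oil arrays of both genotypes lay at 6.08 to 6.70 and the PCN arrays at 8.06 to 8.89. In wash batch 2 the oil arrays lay at 4.71 to 7.38 and the PCN arrays at 6.99 to 11.62. The *Spp1* change was not fitted within a batch. *Ctsk* and *Ctsl*, lysosomal proteases, rose in *Pxr*-/- mice by 0.85 and 0.60 (adjusted p = 0.00331 and 0.00366 by limma). *Plin2*, which coats lipid droplets, differed by 0.09 in WT and 0.39 in *Pxr*-/- mice, *Apoe* by 0.14 and 0.25, *Lpl* by -0.20 and 0.32, and *Cd9* by -0.09 and 0.23, all without a call. By adjusted p alone *Plin2* passed in *Pxr*-/- mice and *Apoe* in the average of the genotypes, under the fold required.

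Counts of calls with PCN in the pathway lists stand beside 1.05% of all genes in WT and 1.48% in *Pxr*-/- mice. In the pathway around TREM2 and the MITF and TFE factors 0 of 11 genes were called in either genotype, with a median change of 0.20 in WT and 0.11 in *Pxr*-/- mice. *Mitf* itself differed by 0.05 and 0.07. Among the ligands of the CSF1 receptor, *Csf1* differed by 0.22 and 0.29 and *Il34* by 0.27 and 0.32, with no call. Both ligands passed by adjusted p alone in *Pxr*-/- mice and in the average of the genotypes, under the fold required, and neither did in WT. Of 11 monocyte-attracting chemokines and receptors 2 were called in each genotype. *Ccl2* rose by 1.5 in WT (SE 0.259, adjusted p = 0.00257 by limma) and 1.45 in *Pxr*-/- mice (SE 0.246, adjusted p = 0.00314), and *Ccl7* by 1.15 and 1.11 (adjusted p = 0.00393 and 0.00404). Both act on CCR2 of monocytes, and *Ccr2* differed by 0.32 and 0.33 without passing the test. Of 10 genes of scavenging, lipid uptake and lipid export only *Abca1*, the cholesterol exporter, was called in WT (0.85, adjusted p = 0.000679 by limma). In *Pxr*-/- mice 0 of the 10 were called, and *Abca1* was at 0.49 (adjusted p = 0.0289). Between the PCN groups *Abca1* was called as well, alone among the genes of all lists read here, and was 0.77 lower in *Pxr*-/- mice (adjusted p = 0.00245). Of 10 other complement genes *C4b*, which acts downstream of C1q, was called in WT (0.72, adjusted p = 0.0126) and was at 0.53 in *Pxr*-/- mice (adjusted p = 0.0402).

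**Figure D5:**
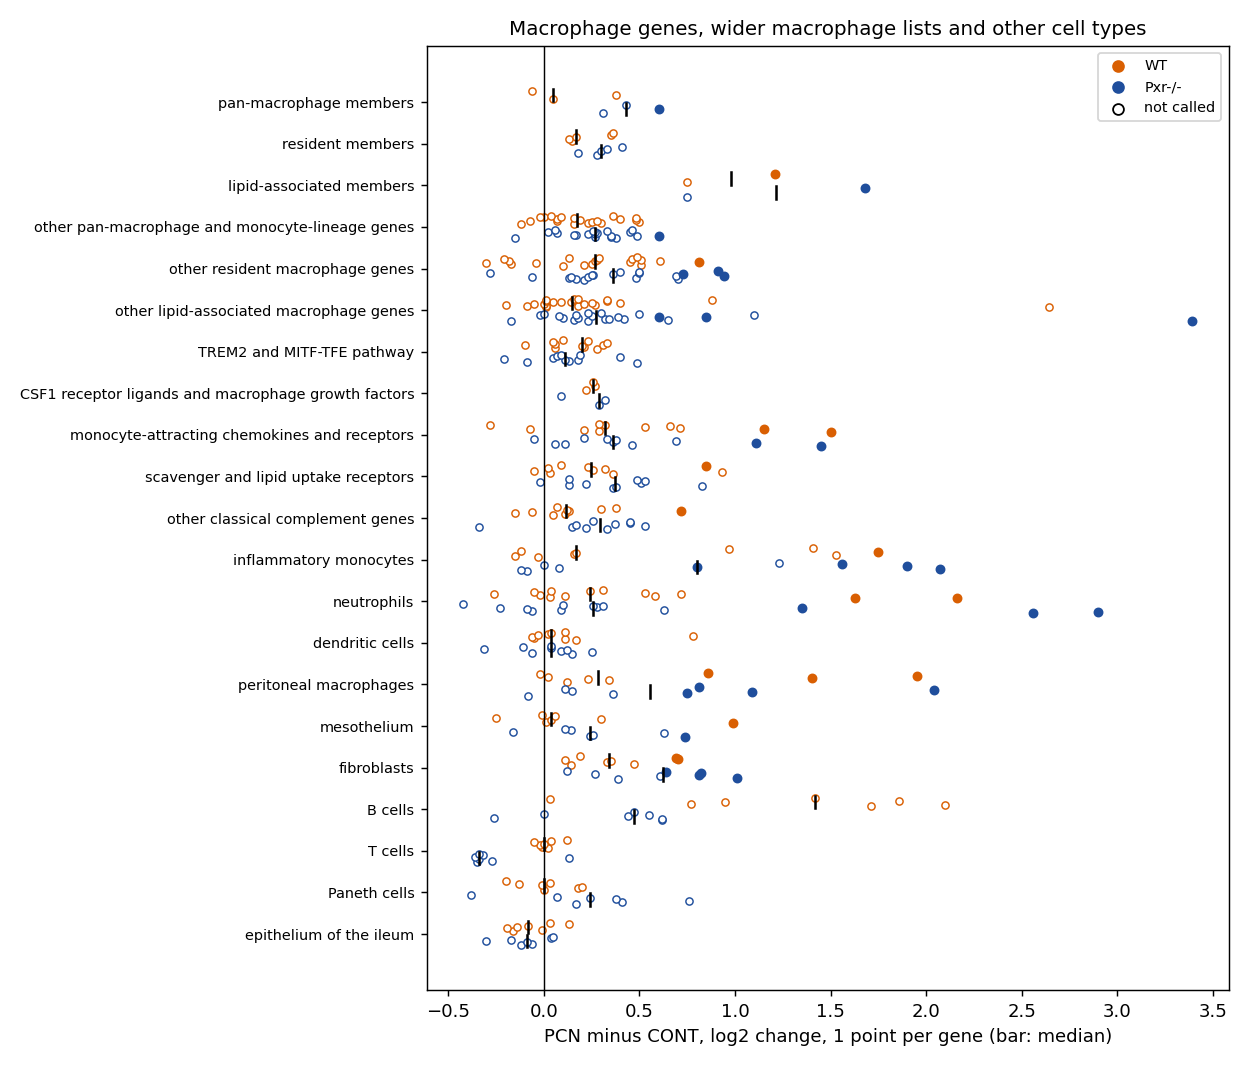
Change with PCN on the log2 scale for every gene of the macrophage lists, the related pathways and the markers of other cells, in WT (orange) and *Pxr*-/- mice (blue). Filled points are called, and black bars are the medians, which reach 0.98 and 1.22 for the lipid-associated genes *Gpnmb* and *Trem2* and 0.17 and 0.30 for the resident genes.

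Some markers of other cells moved with the macrophage genes while others did not, and their part in the result was not tested. For inflammatory monocytes 1 of 9 genes was called in WT and 4 of 9 in *Pxr*-/- mice, beside 1.05% and 1.48% of all genes. *S100a4* rose by 1.75 and 1.9 (adjusted p = 5.18e-08 and 3.92e-09 by limma), and *Chil3*, *Fn1* and *F10* rose by 2.07, 0.80 and 1.56 in *Pxr*-/- mice. The summed linear signal of the 9 ran from 93600 to 120000 in WT CONT, from 107000 to 117000 in WT PCN, from 104000 to 161000 in *Pxr*-/- CONT and from 125000 to 157000 in *Pxr*-/- PCN. The defining marker *Ly6c2* was measured, at -0.03 in WT and -0.09 in *Pxr*-/- mice.

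For neutrophils 2 of 13 genes were called in WT and 3 of 13 in *Pxr*-/- mice, beside 1.05% and 1.48% of all genes. *S100a8* rose by 1.63 and 2.56 and *S100a9* by 2.16 and 2.90, in WT and *Pxr*-/- mice, and *Retnlg* rose by 1.35 in *Pxr*-/- mice. *Ly6g*, which defines neutrophils, was at -0.26 and -0.23, *Elane* at -0.02 and -0.09, and *Mpo*, well above background on 13 of 23 arrays, at 0.11 and 0.09. The summed signal of the 13 ran from 38800 to 50900 in WT CONT, 41900 to 53700 in WT PCN, 37400 to 51600 in *Pxr*-/- CONT and 43700 to 50000 in *Pxr*-/- PCN, all overlapping.

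PCN was injected into the abdominal cavity, so genes of peritoneal macrophages and of mesothelium, the lining of that cavity, were read too. Of 8 peritoneal genes 3 were called in WT and 4 in *Pxr*-/- mice, beside 1.05% and 1.48% of all genes. *Serpinb2* rose by 1.95 and 2.04, *Saa3* by 1.4 and 1.09 and *Selp* by 0.86 and 0.81 in WT and *Pxr*-/- mice, and *Prg4* rose by 0.75 in *Pxr*-/- mice. *Gata6*, the factor that defines peritoneal macrophages and is also active in ileal epithelium, was at 0.12 and -0.08. Which cells gave the signal of these 8 genes was not determined, for the called genes as for *Gata6*. Their summed signal was 5290 to 9290 in WT CONT and 9460 to 12600 in WT PCN, without overlap, and 7550 to 10600 in *Pxr*-/- CONT and 9860 to 22200 in *Pxr*-/- PCN. Their mean log2 value was 7.67 to 8.05 in WT CONT and 8.36 to 8.53 in WT PCN. In *Pxr*-/- mice it was 7.80 to 8.04 with oil and 8.39 to 8.78 with PCN. *Msln* of the mesothelium rose by 0.99 and 0.74, the only one of 7 mesothelial genes called, and their summed signal was 2560 to 4160, 4060 to 5700, 2610 to 3890 and 2980 to 6290 in the 4 groups in the same order.

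Fibroblast genes were called for 2 of 8 in WT and 4 of 8 in *Pxr*-/- mice, beside 1.05% and 1.48% of all genes. *Lum* was at 0.70 and 0.82, *Pdpn* at 0.69 and 0.64, and *Col1a1* and *Col3a1* were at 1.01 and 0.81 in *Pxr*-/- mice. The summed signal of the 8 ran from 48000 to 60400 in WT CONT, 44700 to 99400 in WT PCN, 37800 to 65300 in *Pxr*-/- CONT and 60300 to 104000 in *Pxr*-/- PCN. Markers of dendritic cells, B cells, T cells, Paneth cells and ileal epithelium gave 0 calls with PCN in either genotype. The B cell genes were uneven, with a median change of 1.42 in WT and 0.47 in *Pxr*-/- mice and a summed signal of 2010 to 13700 in WT PCN against 1590 to 2220 in WT CONT. The epithelial median was -0.08 and -0.09, the Paneth median 0.00 and 0.24, the T cell median 0.00 and -0.34, and the dendritic median 0.04 in both genotypes.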

How the data were processed

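Single-colour Agilent arrays (Cy3, 150 ng of TRIzol-extracted RNA) were scanned with Feature Extraction 10.10.1.1, per the submitters' processing notes. The deposited scanner files hold spot intensity on a linear scale and 0 or 1 flags, given here as a score, for a spot well above background. The values deposited by the authors as 1 table are on the log2 scale. Per the study's array methods, which describe the liver arrays of the same mice and were taken here to hold for the ileum, median signals were filtered, put on the log2 scale, corrected for washing batch and normalized by CrossNorm. The filter rule and the CrossNorm grouping are not given in the sources used here. When checked, all columns had the same quantiles (median 8.02), and each followed the scanner signal of its array (Spearman 0.9995 to 0.99967, slope 0.975 to 1.027 across probes), so direction and scale were those of the signal. Labels allocate 6 mice per group, and 23 arrays were analysed here.

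A fit with limma 3.58.1 (R 4.3.3) to all 23 arrays, with 4 group means and wash batch, gave 6 contrasts, 2-sided, with Benjamini-Hochberg adjustment over 37161 probes. Array probes were named from the scanner files, and other genes through RefSeq. The fit was tested on simulated data. The macrophage genes and all lists were chosen with earlier results of these data known. All 10 genes were named, and from each other list the called genes (at most the 4 largest per contrast) and defining markers, besides *Nr1i2*, *Lyz1*, *Spp1* and the 5 genes most like *Gpnmb* and the resident mean. Defining markers and pathway genes without a call were named after their values were seen. A list is described by its count, median and summed signal (2 to the power of the log2 value), without a test. For some lists of other cells the mean log2 value of the genes is given too, and was added after the values were seen. The alternatives covered signal, background correction, normalization, filter, wash batch, slide, replicate block, array weights, probe averaging and each array left out. Precision is limited by how many arrays each group had (5 or 6). The probe sequence of *Gpnmb* is not reported here.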

Additional observations from a re-analysis of the deposited data

Results flagged for a closer look

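The values of the 10 genes and the difference between the lipid-associated and resident means were screened in each group for an array standing apart from the rest, 44 sets of arrays in all. Of these 2 were marked, and chance alone marks about 1 in 20. *C1qa* in WT PCN replicate 5 was at 10.89, above the next value of 10.81, in a group whose other 4 arrays were very close together. *C1qb* in *Pxr*-/- CONT replicate 3 was at 9.73, below the next value of 10.07. The same mouse had the lowest *C1qa*, *C1qc*, *Csf1r*, *Cd68*, *Lyz2* and *Trem2* values of its group. None of the 10 genes passed limma's test of the difference between the PCN effects of the genotypes.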

How the results depend on the processing

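The call of *Trem2* in *Pxr*-/- mice held under all 15 alternatives on all arrays, with changes of 1.45 to 1.89, and under leaving out each of the 23 arrays (1.48 to 1.84), but not within wash batch 1 (1.32, adjusted p = 0.212 by limma). The number of macrophage genes called with PCN in WT was 0 with slide as a fixed block, within wash batch 1 and within wash batch 2, and 0 to 1 without single arrays. In *Pxr*-/- mice it was 1 under normexp, median centring, array weights, the mean of all probes and within wash batch 2, 0 within wash batch 1, 4 without a fold threshold, and 1 to 3 without single arrays. Averaged over genotypes it was 1 under normexp and within either wash batch, 6 without a fold threshold, and 2 without any single array. *Gpnmb* was called in *Pxr*-/- mice without WT PCN replicate 2 (adjusted p = 0.0393 by limma) or *Pxr*-/- PCN replicate 3 (adjusted p = 0.0477). Within a wash batch the fits had few arrays, and the cause of a lost call was not tested.

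For single genes the alternatives were run for 37 results, which leave out most genotype contrasts and differences of the PCN effects. Among these 37, directions turned for 4 differences near 0. The WT change of *Csf1r* was -0.015 with median centring, -0.013 in the mean of all probes and -0.067 within wash batch 2. That of *Lyz2* was 0.047 with slide as a fixed block, 0.017 with the replicate block and 0.20 in the mean of all probes. The difference of the PCN effects for *Cd163* was -0.015 with the 75th percentile scaling, -0.012 with array weights and -0.22 within wash batch 1, and that of *Trem2* between the oil groups was -0.033 within wash batch 2. Leaving out single arrays gave -0.014 to 0.087 for *Csf1r* and -0.21 to 0.063 for *Lyz2* in WT, -0.26 to 0.31 for the *Cd163* difference and -0.043 to 0.18 for *Trem2* between the oil groups. Arrays of the same replicate number in different groups correlated at -0.20 to 0.42 (median -0.04, 33 pairs, 6 over 0.1). Arrays of other numbers correlated at -0.44 to 0.43 (median 0.00, 165 pairs, 37 over 0.1), so no sign that the numbers pair the mice was seen. With the replicate block the *Trem2* changes were 1.24 in WT and 1.68 in *Pxr*-/- mice (adjusted p = 0.0299 and 0.00262), and no count of calls changed.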
